A study of Arabidopsis thaliana with 4 samples.

Results

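Annotations of microRNA precursors were examined in a transcriptome of dividing and non-dividing tissue of *Arabidopsis thaliana*. The members were all 174 annotations that the deposited expression table gives the type mirna, of 33476 annotations in all. This rule used no measured value, but the group was chosen with earlier results of these data known. The libraries were made from polyadenylated RNA, so a member was measured through its long precursor transcript and not through the mature microRNA.

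The comparison rests on 4 libraries, 2 per tissue, all from plants of the Columbia background grown for 4 weeks in short days of 8 h of light at 20 to 22°C. Dividing tissue was the shoot meristem with the youngest leaves, and non-dividing tissue was the oldest 4 to 6 leaves. In each tissue, replicate 1 came from plants carrying HTR5-GFP (a tagged histone H3.3) and replicate 2 from plants carrying HTR13-GFP (a tagged histone H3.1), each transgene under its own promoter. Every library thus carried a tagged histone, no untagged plants were included, and replicate and line cannot be told apart. The values are FPKM, fragments counted relative to annotation length and to the number of mapped reads. Fragment numbers per annotation are not given, so the exact number behind a single value is unknown. The paper lists more mapped reads for both dividing libraries than for both non-dividing ones. Counts of annotations above 0 were not adjusted for this. Markers of dividing apex fitted the labels in part. The meristem gene STM was listed at 0 in both non-dividing libraries and at 20.7 and 21.6 FPKM in the dividing ones. Of 7 tested apex markers, 6 were higher in dividing tissue, where 51.7% of all tested annotations were called higher. STM, KNAT1, CYCB1;1 and CDKB1;1 were below 1 FPKM in both non-dividing libraries. They reached the mean of 1 FPKM required for a test only through dividing tissue. CLV1 did not pass, with 24.5 and 25.4 FPKM in non-dividing and 27.9 and 27.1 FPKM in dividing tissue (adjusted p = 0.190 by limma). On the rescaled values described below it was called lower in dividing tissue (log2 fold change -0.26, adjusted p = 0.0422 by limma). CLV3 and WUS, which mark the centre of the meristem, were at 0 in all 4 libraries. Of 4 ageing-leaf markers, ORE1 and NYE1 were lower in dividing tissue, where 18.2% of all tested annotations were called lower. WRKY53 did not pass the test (adjusted p = 0.0786 by limma, 0.00138 with the replicate number as a block) and SAG12 was at 0 in all 4 libraries. The 2 root hair markers were also at 0 in all 4 libraries, and the summed FPKM of 4 flower genes did not exceed 0.471 in any library. In bulk tissue, fewer cells of a type and less RNA per cell cannot be told apart.

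Plant microRNA genes are transcribed by RNA polymerase II into capped and polyadenylated primary transcripts that fold into hairpins. In the nucleus, the RNase III enzyme DCL1 cuts the hairpin with the help of HYL1 and SE, HEN1 methylates the duplex, and one strand is loaded onto AGO1 to guide the cleavage or translational repression of target mRNAs. Processing removes the hairpin, so the level of a primary transcript reflects both its synthesis and its processing. Several conserved plant families act on regulators of development: miR156 targets SPL transcription factors that promote the change from juvenile to adult growth, miR167 targets the auxin response factors ARF6 and ARF8, and miR398 targets copper/zinc superoxide dismutases.

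The mature sequences of the precursors that differed between the tissues, and of those the text returns to, are given 5′ to 3′ with the seed (bases 2 to 8) in capitals. They were read from the RefSeq annotation of TAIR10.1. The first sequence belongs to the only precursor annotation that was higher in dividing tissue.
miR834: uGGUAGCAguagcggugguaa
The following sequences belong to the precursors that were lower in dividing tissue.
miR167d: uGAAGCUGccagcaugaucugg
miR163: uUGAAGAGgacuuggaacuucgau
miR156c-5p: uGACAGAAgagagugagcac
miR398c-3p: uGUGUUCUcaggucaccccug
The remaining sequences belong to the other precursors tested and to MIR169k, a neighbour of MIR169m.
miR838: uUUUCUUCuacuucuugcaca
miR850: uAAGAUCCggacuacaacaaag
miR841a-5p: uACGAGCCacuugaaacugaa
miR824-5p: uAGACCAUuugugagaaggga
miR169k: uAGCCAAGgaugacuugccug
miR169m: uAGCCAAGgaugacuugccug

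Grouped by seed, 3 of the 5 called precursors shared their seed with other members. The miR156c-5p seed was shared by 9 annotated precursors, of which only MIR156c was above 0 in any library. The miR167d seed was shared by 3 precursors and the miR398c-3p seed by 3, and in each case a single one, MIR167d or MIR398c, was above 0. Over all members, 159 of 174 were at 0 in every library. Families can be wider than a shared seed, with 12 annotations for miR156 and miR157 and 4 for miR167. Of these, 11 and 2 had at most 200 bases, a length at which 0 of 133 members were above 0. The seed of miR169k and miR169m occurred in 10 precursors, 2 of them above 0. The seeds of miR834, miR163, miR838, miR850, miR841a-5p and miR824-5p each occurred in 1 annotated precursor.

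To find how many precursors the libraries registered at all, members above 0 were counted in each library. Of the 174 annotations, 13 and 11 were above 0 in non-dividing replicates 1 and 2, and 12 in each dividing library. The tissues overlapped in this number. These counts were 6.32 to 7.47% of the members, against 57.4 to 60.9% of all annotations in the same libraries. In total 15 members (8.62%) were above 0 in at least 1 library, 10 were above 0 in all 4, and 159 were listed at 0 throughout. Over all annotations, 62.8% were above 0 in at least 1 library. An exact 0 in such a table can be a failed estimate, so these members are described as listed at 0 and not as untranscribed. With a minimum of 1 FPKM the counts were 11 and 8 in non-dividing tissue and 9 and 8 in dividing tissue. With 2 libraries against 2, an exact two-sided permutation test of any such count cannot give a p below 0.333.

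The members above 0 were long annotations. Member length ranged from 64 to 2897 bases with a median of 125.5, and 135 members were shorter than the shortest one above 0, MIR838 with 207 bases. Of 133 members of up to 200 bases, 0 were above 0, whereas 6 of 24 members of 201 to 300 bases, 4 of 11 of 301 to 1000 bases and 5 of 6 longer ones were. Protein-coding annotations showed the same order by length, with 34 of 622 (5.47%) above 0 at up to 200 bases, 54 of 309 at 201 to 300 bases and 82.7% beyond 1000 bases. All 689 annotations of transfer RNA precursors were at 0. The exception among the long members was MIR172a, 1944 bases long, whose microRNA targets AP2-like repressors of flowering. It was listed at 0 in all 4 libraries, as was MIR167a with 602 bases. How much of the low number above 0 follows from length was not tested.

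**Figure D1:**
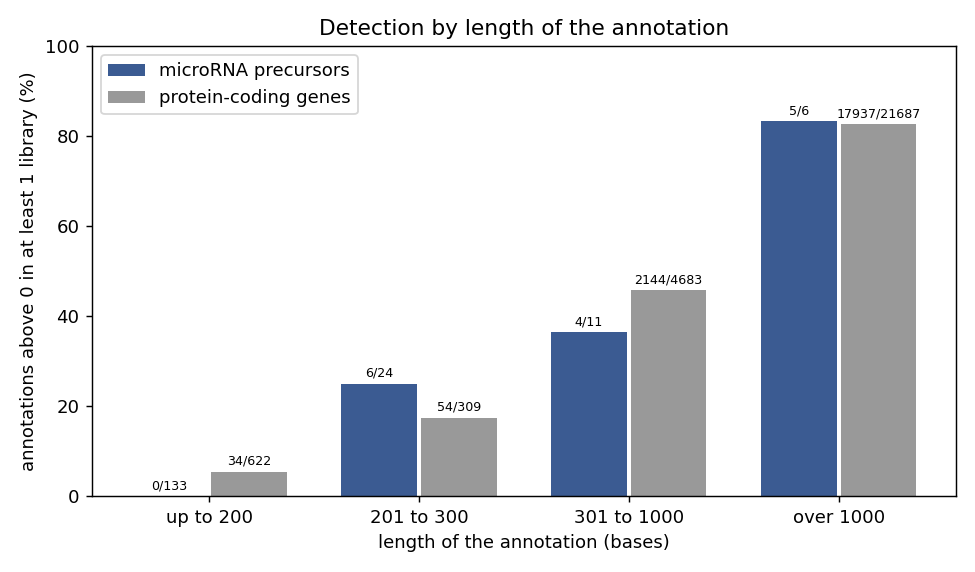
Share of annotations above 0 in at least 1 of 4 libraries (y axis, %) by length of the annotation in bases (x axis), for microRNA precursors (blue) and protein-coding genes (grey), with the number above 0 and the number in the class over each bar. No bar stands over the 133 shortest precursor annotations, and 5 of 6 precursor annotations over 1000 bases were above 0.

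The conserved families followed length in part. The 21 families hold 90 of the members, and 6 of these, from 5 families, were above 0: MIR156c, MIR167d, MIR169k, MIR169m, MIR398c and MIR408. Precursors of miR165 and miR166 (9 annotations, which target the HD-ZIP III regulators of leaf polarity), of miR395 and miR399 (6 annotations each, regulators of sulphate and phosphate supply) and of miR164 (3 annotations) were all at 0, and all of these annotations had at most 200 bases. In the miR169 family, 9 of 14 annotations exceeded 200 bases and 7 of these were at 0, up to MIR169c with 411 bases. MIR169k and MIR169m, above 0, had 213 and 212 bases. MIR159c, with 225 bases, was also at 0. Most members of these lengths were at 0. Above 0 were 6 of 24 at 201 to 300 bases and 4 of 11 at 301 to 1000 bases. The member annotations of the families above 0 could be much longer than the hairpin. MIR156c spans 2555 bases in the deposited table and 104 bases in RefSeq, MIR398c spans 2388 and 115 bases, and MIR167d spans 1605 and 377 bases.

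Position relative to other genes was examined next, because the library protocol kept no strand information and reads from overlapping annotations cannot be told apart. Of the 174 members, 31 overlapped another annotation, 21 on the same strand and 10 on the opposite one. Among the 15 members above 0, 9 overlapped another annotation, and among the 159 at 0, 22 did. The members above 0 with no overlap were MIR167d, MIR163, MIR156c, MIR169k, MIR169m and MIR822. Of the 22 overlapping members at 0, 15 lay over an annotation that was above 0 in all 4 libraries. Of these 15, 13 had at most 200 bases, a length at which no member was above 0 whether it overlapped or not. The other 2 were MIR402, 309 bases in an intron of AT1G77230 (2.98 to 6.72 FPKM), and MIR853, 247 bases in an intron of AT3G23325 (12.6 to 26.6 FPKM).

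Levels of the 15 members above 0 were low, with summed FPKM over all members of 111 and 59.6 in non-dividing and 56.1 and 64.6 in dividing tissue. Non-dividing replicate 1 stood above the other 3 libraries, and MIR850 alone contributed 47.5 FPKM to its sum. By mean FPKM over the 4 libraries, MIR834 was the highest (20.0), followed by MIR850 (18.2), MIR163 (6.94), MIR841a (6.58), MIR838 (5.30), MIR398c (4.93), MIR167d (4.86), MIR156c (1.77), MIR169m (1.27) and MIR824 (1.08). For every pair of neighbours in this order the ranges over the 4 libraries overlapped.

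**Figure D2:**
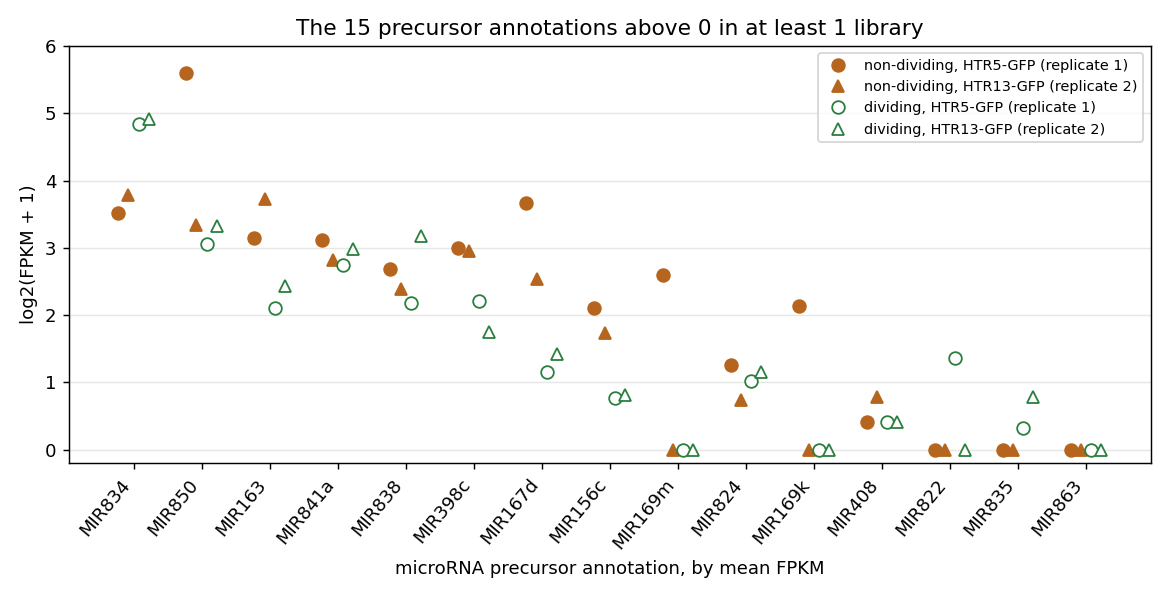
Level of each of the 15 precursor annotations above 0, as log2(FPKM + 1) on the y axis, in the 4 libraries (brown filled, non-dividing; green open, dividing; circles, HTR5-GFP; triangles, HTR13-GFP). MIR834 is higher in both dividing libraries, MIR167d, MIR163, MIR156c and MIR398c are lower in both, and MIR850, MIR169m and MIR169k are highest in non-dividing replicate 1 alone.

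To determine which precursors differed between the tissues, limma was fitted on log2(FPKM + 1) to the 17967 annotations whose FPKM averaged 1 or more, 10 of them members. By limma with Benjamini-Hochberg adjustment at 0.05, 1 of 10 tested members was higher in dividing tissue, where 51.7% of all tested annotations were called higher, and 4 were lower, where 18.2% of all were called lower. The median log2 fold change was -1.06 over the 10 members and 0.38 over all tested annotations. MIR156c and MIR169m were below 1 FPKM in both dividing libraries and passed the filter only through non-dividing tissue. Their sign in the median, and the place of MIR156c in the counts of lower members, was thus partly set by the filter. MIR822 and MIR835, above 0 in dividing libraries only, and MIR169k, above 0 in non-dividing replicate 1 only, did not pass it. Without the filter the median over the members above 0 was -0.19. The median over the members rested on the first non-dividing library: it was -0.92 in HTR5-GFP plants, -0.01 in HTR13-GFP plants and -0.076 without non-dividing replicate 1. Both dividing libraries lay below both non-dividing ones for 5 of the 10 members, against 24.8% of all tested annotations, and above them for 1, against 62.2%. Because most annotations were higher in dividing tissue, the libraries were also rescaled to a common median ratio, which moved the median of all tested annotations to 0.02. After rescaling, 1 of the 10 members was called higher and 5 lower, where 31.1% of all were called higher and 30.6% lower. The p-values measure the spread between these libraries only.

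**Figure D3:**
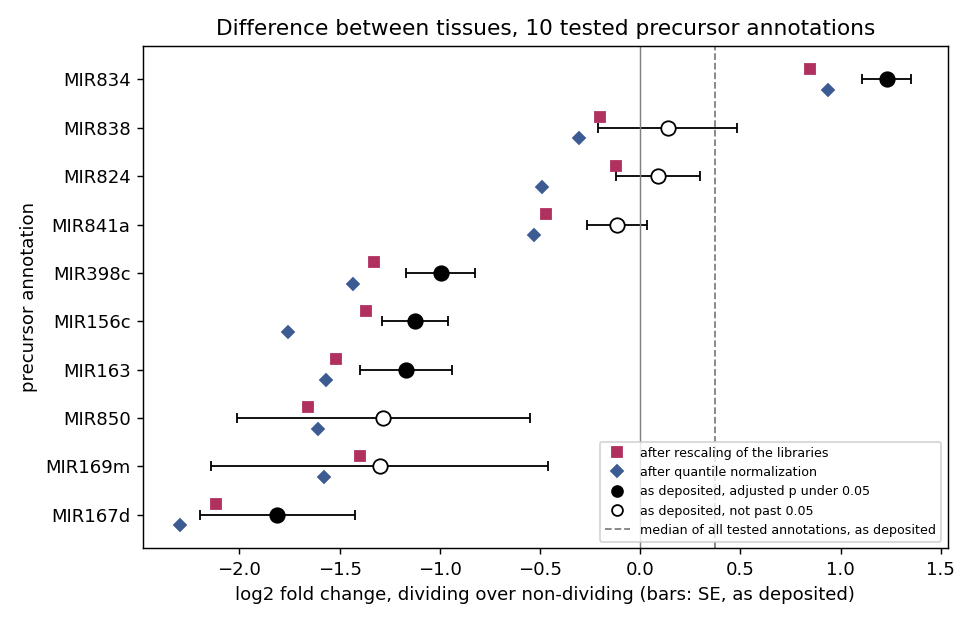
Log2 fold change of dividing over non-dividing tissue (x axis) of the 10 tested precursor annotations (y axis). Circles with SE bars give the deposited scale (filled, adjusted p under 0.05), and squares and diamonds give the values after rescaling and quantile normalization. MIR834 lies above 0 and MIR167d, MIR163, MIR156c and MIR398c lie below 0 on all 3 scales, whereas MIR838 and MIR824 change side.

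MIR834 was the precursor annotation that was higher in dividing tissue. It had 10.4 and 12.8 FPKM in non-dividing replicates 1 and 2 and 27.6 and 29.3 FPKM in the dividing ones. Both dividing libraries were higher than both non-dividing ones, with means of 28.4 ± 1.21 and 11.6 ± 1.67 FPKM (SD, n = 2). The increase was 2.65 times in HTR5-GFP plants and 2.29 times in HTR13-GFP plants, with a log2 fold change of 1.23 (SE 0.12, adjusted p = 0.000999 by limma). After rescaling it was 0.85 (adjusted p = 0.00323 by limma). The annotation covers 249 bases on chromosome 5 from 2641426 to 2641674 (TAIR9), all of them within AT5G08230 on the same strand, and 210 of them lie in exons of that gene in RefSeq. AT5G08230 itself had 5.65 and 6.51 FPKM in non-dividing and 10.1 FPKM in both dividing libraries, a log2 fold change of 0.65 (SE 0.10, adjusted p = 0.00401 by limma). Reads of the precursor and of its host transcript cannot be told apart. Of the 4 tested members that overlap no other annotation, 3 were lower in dividing tissue (MIR167d, MIR163 and MIR156c) and MIR169m did not pass.

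MIR167d showed the largest difference in the other direction among the called members. It lies on chromosome 1 from 11137365 to 11138969 and overlaps no annotation. Its values were 11.7 and 4.78 FPKM in non-dividing replicates 1 and 2 and 1.23 and 1.68 FPKM in the dividing ones. Both non-dividing libraries were higher, by 9.51 times in HTR5-GFP plants and 2.85 times in HTR13-GFP plants. On the log2 scale the difference was -1.81 (SE 0.39, adjusted p = 0.0108 by limma). The call was lost without dividing replicate 1 (log2 fold change -1.68) and without dividing replicate 2 (-1.94). The log2 fold change was -1.24 without non-dividing replicate 1 and -2.38 without non-dividing replicate 2, so its size depended on the non-dividing library used. In all of these fits the lone library of a tissue is assumed to vary like the others.

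MIR163, the precursor of a 24-base microRNA whose known targets are methyltransferases of secondary metabolism, lies on chromosome 1 from 24883931 to 24884559 and overlaps no annotation. It had 7.88 and 12.2 FPKM in non-dividing replicates 1 and 2 and 3.28 and 4.41 FPKM in the dividing ones. The tissues did not overlap, and non-dividing tissue was 2.40 times higher in HTR5-GFP plants and 2.76 times higher in HTR13-GFP plants. Fitted by limma, the log2 fold change was -1.17 (SE 0.23, adjusted p = 0.00825 by limma). As for MIR167d, the call was lost without dividing replicate 1 (log2 fold change -1.0) and without dividing replicate 2 (-1.34). The log2 fold change was -1.45 without non-dividing replicate 1 and -0.88 without non-dividing replicate 2.

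MIR156c lies on chromosome 4 from 15413319 to 15415873 and overlaps no annotation. Its values were 3.29 and 2.31 FPKM in non-dividing replicates 1 and 2 and 0.710 and 0.750 FPKM in the dividing ones. Non-dividing tissue was higher in both lines, by 4.63 and 3.08 times in HTR5-GFP and HTR13-GFP plants. The log2 fold change was -1.12 (SE 0.16, adjusted p = 0.00318 by limma), and the call was kept with each library left out in turn. It was also the only member at or above 1 FPKM in both libraries of one tissue and below 1 FPKM in both of the other.

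MIR398c, on chromosome 5 from 4694626 to 4697013, had 6.99 and 6.73 FPKM in non-dividing replicates 1 and 2 and 3.62 and 2.37 FPKM in the dividing ones. Both non-dividing libraries were higher, by 1.93 times in HTR5-GFP plants and 2.84 times in HTR13-GFP plants, with means of 6.86 ± 0.182 and 2.99 ± 0.886 FPKM (SD, n = 2). The log2 fold change was -0.99 (SE 0.17, adjusted p = 0.00560 by limma), and the call was kept with each library left out. Of its 2388 bases, 1930 lie opposite NRT2.7, a nitrate transporter, which had 29.5 and 21.9 FPKM in non-dividing and 8.05 and 6.28 FPKM in dividing tissue. NRT2.7 thus moved in the same direction, with a log2 fold change of -1.70 (SE 0.19, adjusted p = 0.00132 by limma). In RefSeq, where the MIR398c gene is 115 bases long, the genes do not overlap. The part of NRT2.7 reads in the MIR398c value was not tested.

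The remaining 5 tested members did not pass the threshold. MIR850 had 47.5 and 9.14 FPKM in non-dividing replicates 1 and 2 and 7.34 and 8.98 FPKM in the dividing ones. Non-dividing replicate 1 was far above the other 3 libraries, which lay between 7.34 and 9.14 FPKM. The log2 fold change was -1.28 (SE 0.73, adjusted p = 0.173 by limma), and -0.15 without non-dividing replicate 1. MIR850 sits in an intron of AT4G13495, a long RNA of 385 and 332 FPKM in non-dividing and 199 and 170 FPKM in dividing tissue. This host RNA was lower in dividing tissue (log2 fold change -0.95, SE 0.13, adjusted p = 0.00269 by limma). MIR863 also overlaps it, with 178 of its bases, and was listed at 8.99e-05 and 0.000323 FPKM in non-dividing and at 0 and 0.000371 FPKM in dividing tissue, which are above 0 in name only.

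MIR838 lies in an intron of DCL1, whose mRNA is itself a target of miR162. It had 5.43 and 4.23 FPKM in non-dividing replicates 1 and 2 and 3.51 and 8.02 FPKM in the dividing ones, so that the dividing libraries lay on both sides of the non-dividing ones. The log2 fold change was 0.14 (SE 0.35, adjusted p = 0.739 by limma), and -0.20 after rescaling. DCL1 was at 11.8 and 11.9 FPKM in non-dividing and at 10.0 and 9.75 FPKM in dividing tissue (log2 fold change -0.24, SE 0.08, adjusted p = 0.0516 by limma). On the rescaled values DCL1 was called lower in dividing tissue (log2 fold change -0.61, adjusted p = 0.00322 by limma).

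MIR841a, which lies opposite the histone H2A gene HTA4, had 7.69 and 6.09 FPKM in non-dividing replicates 1 and 2 and 5.68 and 6.86 FPKM in the dividing ones, which overlapped. The log2 fold change was -0.12 (SE 0.15, adjusted p = 0.515 by limma). After rescaling it was -0.47 and past the threshold (adjusted p = 0.0456 by limma). HTA4 had 11.6 and 10.9 FPKM in non-dividing and 10.8 and 10.2 FPKM in dividing tissue. MIR824, whose microRNA targets the stomatal regulator AGL16, had 1.40 and 0.676 FPKM in non-dividing and 1.03 and 1.23 FPKM in dividing tissue. Its dividing libraries lay between the non-dividing ones (log2 fold change 0.09, SE 0.21, adjusted p = 0.719 by limma), and the sign turned after rescaling (-0.12).

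**Figure D4:**
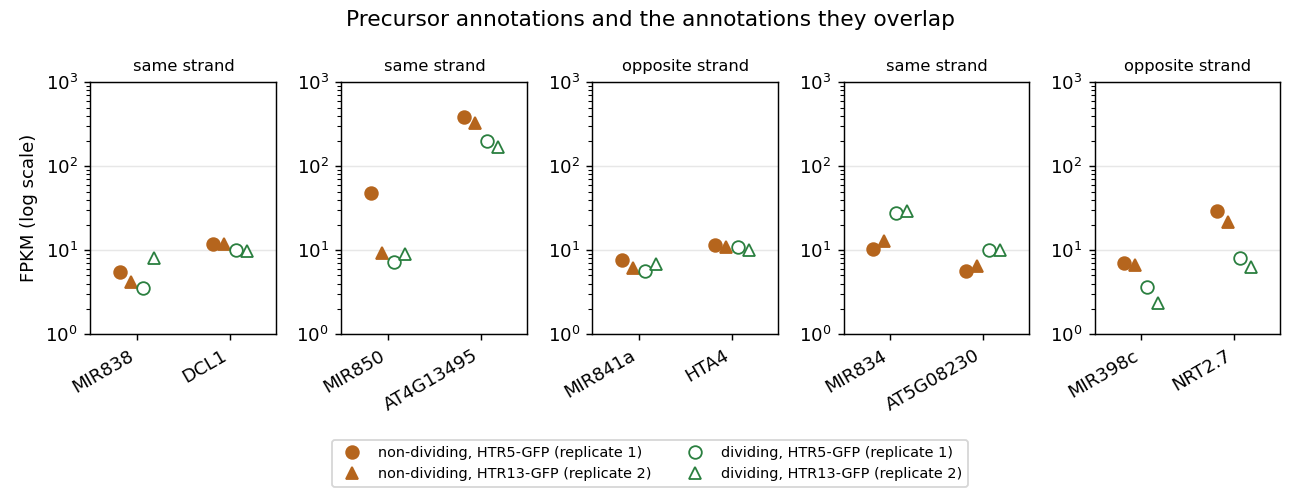
FPKM on a log axis of 5 tested precursor annotations and of the annotation each overlaps, in the 4 libraries (brown filled, non-dividing; green open, dividing; circles, HTR5-GFP; triangles, HTR13-GFP), with the strand of the overlapping annotation relative to the precursor, taken from RefSeq, above each panel. MIR834 and AT5G08230 are both higher in dividing tissue, and MIR398c and NRT2.7 are both lower.

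MIR169m and MIR169k were above 0 in a single library. MIR169m had 5.07 FPKM and MIR169k 3.37 FPKM in non-dividing replicate 1, and both were listed at 0 in the other 3 libraries. They belong to a cluster of 6 MIR169 annotations, MIR169i to MIR169n, within 6795 bases of chromosome 3, and the other 4 were at 0 throughout. Their mature sequences are identical. Of the stretches of 36 bases in each gene, MIR169k shares 7 of 178 with MIR169m, and MIR169m shares 21 of 177 with MIR169i, so reads from these stretches cannot be assigned to 1 of the genes. MIR169m was not past the threshold (log2 fold change -1.30, SE 0.84, adjusted p = 0.219 by limma), and its difference was 0.00 without non-dividing replicate 1.

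MIR835 was the only member above 0 in both libraries of one tissue and at 0 in both of the other, with 0.244 and 0.726 FPKM in dividing tissue. Over all annotations, 2.96% had this pattern and 0.559% had the opposite one, which 0 members had. All 400 bases of MIR835 lie in exons of AT1G76065 on the same strand, which had 2.06 and 1.43 FPKM in non-dividing and 2.04 and 2.82 FPKM in dividing tissue. MIR822 was above 0 in dividing replicate 1 alone (1.58 FPKM). MIR408, whose microRNA targets copper proteins such as plantacyanin and laccases, had 0.336 and 0.713 FPKM in non-dividing and 0.332 and 0.325 FPKM in dividing tissue, so that non-dividing replicate 2 alone stood above the other 3 libraries. All 1247 bases of MIR408 lie opposite AT2G47020, which had 2.49 to 8.95 FPKM over the 4 libraries. AT2G47020 was higher in dividing tissue (log2 fold change 1.33, SE 0.12, adjusted p = 0.000851 by limma). Reads of MIR408 and AT2G47020 cannot be told apart, and the part of AT2G47020 reads in the MIR408 value was not tested. These members were below the level required for a test.

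The genes that make and use microRNAs were compared in the same fit. Of 11 machinery genes, 9 were higher in dividing tissue, and DCL1 and CPL1 did not pass the threshold, where 51.7% of all tested annotations were higher. HYL1, the double-stranded RNA binding partner of DCL1, had 2.89 and 3.02 FPKM in non-dividing and 7.65 and 8.28 FPKM in dividing tissue (log2 fold change 1.18, SE 0.10, adjusted p = 0.000661 by limma). The methyltransferase HEN1 rose by 1.19 and AGO1 by 1.22 on the log2 scale, and the zinc finger protein SE by 0.66 and the exportin HST by 0.74. After rescaling, 8 of the 11 genes were higher and 1, DCL1, was lower, and SE no longer passed, where 31.1% of all were higher and 30.6% lower. The median log2 fold change of the list was 0.86, beside 0.38 over all tested annotations.

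Target mRNAs of the conserved families were taken from a list of 81 genes, of which 71 were tested. Of these, 47 were higher and 4 lower in dividing tissue, where 51.7% of all tested annotations were higher and 18.2% lower. After rescaling, 35 were higher and 11 lower, where 31.1% of all were higher and 30.6% lower. The median log2 fold change of the list was 0.73, beside 0.38 over all tested annotations. The targets GRF2, GRF4, GRF9, LAC13 and ARPN averaged less than 1 FPKM in non-dividing tissue and passed the filter only through dividing tissue. Their direction was thus partly set by the filter. For the 3 families with a precursor called lower in dividing tissue (miR156, miR167 and miR398), 14 targets were listed, 12 were tested, and 11 of these were higher in dividing tissue. On the rescaled values 9 were higher and 1 lower, and both counts are to be read against the same shares over all annotations. Neither count was tested against other genes, and mature microRNAs were not measured. Higher targets were not particular to these 3 families. For miR396, 5 of 5 tested targets were higher, and for miR393 4 of 4, also after rescaling. Of the miR396 targets, GRF2, GRF4 and GRF9 passed the filter only through dividing tissue. The precursors of both families were all listed at 0. All of them had at most 200 bases, a length at which 0 of 133 members were above 0. Such a 0 does not show whether these precursors were transcribed. Other families with all precursors at 0 differed. For miR164, 0 of 2 tested targets were higher and 2 were lower, among them the ageing-leaf marker ORE1. Its targets CUC1 and CUC2, too low to test, went the other way. Both were at 0 in non-dividing tissue. In dividing tissue CUC1 had 0.553 and 0.845 FPKM and CUC2 had 0.974 and 1.26 FPKM. For miR395, 0 of 4 were higher and 1 was lower. The precursor annotations of these families also had at most 200 bases.

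SPL9, which promotes the adult phase of the shoot and is a target of miR156, had 1.34 and 0.801 FPKM in non-dividing and 10.9 and 9.51 FPKM in dividing tissue. Both dividing libraries were higher (log2 fold change 2.45, SE 0.17, adjusted p = 0.000434 by limma). SPL15, a close relative, was at 0 in both non-dividing libraries and at no more than 1.47 FPKM in the dividing ones, below the level required for a test. SPL2 was the tested miR156 target that did not pass, with 7.40 and 7.61 FPKM in non-dividing and 7.94 and 6.52 FPKM in dividing tissue. It was called lower after rescaling (log2 fold change -0.41, adjusted p = 0.0349 by limma). Of the miR167 targets, ARF6 had 23.5 and 21.4 FPKM in non-dividing and 45.4 and 41.1 FPKM in dividing tissue, and ARF8 had 9.75 and 9.98 and then 20.0 and 19.8 FPKM. Both rose in dividing tissue, by 0.91 and 0.94 on the log2 scale, and by 0.52 and 0.56 after rescaling. Of the miR398 targets, the cytosolic CSD1 had 165 and 162 FPKM in non-dividing and 253 and 321 FPKM in dividing tissue, and the chloroplast CSD2 had 90.6 and 82.3 and then 237 and 284 FPKM. The log2 fold changes were 0.80 and 1.58 (adjusted p = 0.00553 and 0.000597 by limma), and CSD1 did not pass after rescaling (0.39, adjusted p = 0.0534).

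**Figure D5:**
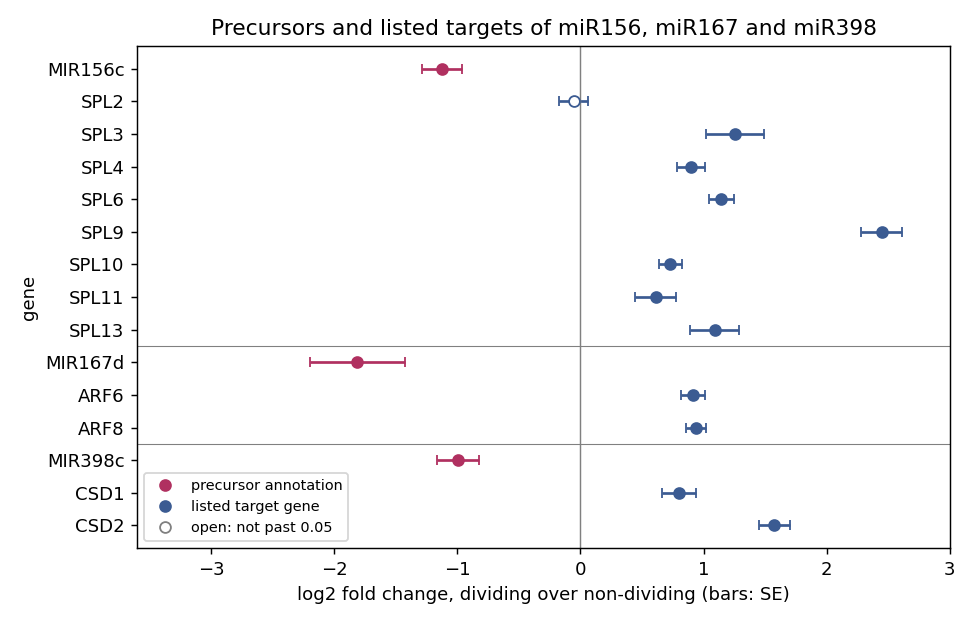
Log2 fold change of dividing over non-dividing tissue (x axis, bars give the SE) of 3 precursor annotations (red) and of the tested genes listed as targets of their microRNAs (blue), with open circles for genes not past an adjusted p of 0.05. The 3 precursors lie below 0, at -1.12, -1.81 and -0.99, and 11 of the 12 targets lie above 0.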

How the data were processed

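The mRNA-Seq libraries were made without strand information from fragmented poly-A RNA. Per the labels, reads were mapped onto TAIR9 with TopHat 1.2.0, Bowtie 0.12.7 and SAMtools 0.1.13, and the authors deposited the FPKM that Cufflinks 0.9.3 estimated for each annotation. Whole reads could not be recovered, since the most frequent ratio between libraries was shared by 83 of 19998 annotations. Counting intervals are therefore not given.

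Starts were raised by 1 to count from 1. Members were matched by locus identifier to RefSeq (TAIR10.1), where 174 of 174 were found and 115 had the same start and end. Overlaps were taken from the TAIR9 coordinates, and strand, exons and mature sequences from TAIR10.1. Log2 fold changes were calculated with limma 3.58.1 in R 4.3.3 (lmFit, eBayes with trend, two-sided) on log2(FPKM + 1) for the 17967 annotations averaging 1 FPKM or more, and p-values were adjusted over all of these (Benjamini-Hochberg). Adding 1 understates the change of low annotations. For rescaling, the factor of a library was its median ratio to the average of the 4 libraries, taken over 17442 annotations (factors from 0.849 to 1.14). The other steps used Python 3.11.15, pandas 2.3.3 and matplotlib 3.10.9.

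The replicate numbers of the labels pair libraries of 1 transgenic line. The deviations of such pairs from the tissue means correlated across the tested annotations (Pearson 0.257, Spearman 0.241). On simulated data of 17967 annotations, 47 of 100 changed 2-fold and 84 of 100 changed 4-fold were recovered. No other annotations were changed there, whereas 51.7% were called higher and 18.2% lower in the data. The adjustment for multiple tests was thus stricter in the simulation, and its recovery does not give the power of this comparison.

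Named members were all tested ones, in full where past the threshold and alike in both lines, then the highest by mean FPKM and those above 0 in 1 tissue only. MIR169k, MIR408, MIR822, MIR863, MIR172a, MIR167a, MIR169c, MIR159c, MIR402 and MIR853 were named after their values had been seen. Members and lists were chosen with earlier results of these data known. Alternatives covered the pseudocount, the filter, the block, rescaling, quantile normalization, overlap and each library left out. The counts of members above 0 in at least 1 library under other settings were added after seeing the data.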

Additional observations from a re-analysis of the deposited data

Results flagged for a closer look

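There were 4 tested genes with values that moved in opposite directions in the HTR5-GFP and HTR13-GFP lines. The values are differences of log2(FPKM + 1), dividing minus non-dividing, from 1 pair of libraries per line, and the difference between lines was not tested. For MIR838 the difference was -0.51 in HTR5-GFP plants and 0.79 in HTR13-GFP plants, which are -1.30 apart. For MIR824 the values were -0.24 and 0.41, or -0.65 apart (-0.649). For MIR841a they were -0.38 and 0.15, or -0.53 apart (-0.529). For SPL2, a target of miR156, they were 0.09 and -0.20, or 0.28 apart (0.285). In all 4 cases the gene did not pass the test between tissues on the deposited scale. After rescaling, MIR841a and SPL2 were called lower in dividing tissue (adjusted p = 0.0456 and 0.0349 by limma).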

How the results depend on the processing

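MIR834, MIR156c and MIR398c kept their calls under every alternative in which they were tested, and their adjusted p by limma with 1 library left out was at most 0.0468. The count of members higher in dividing tissue was 1 under all fits, and 0 with overlapping members left out. The count of 4 lower members was 1 with a mean FPKM of at least 5, which left 5 members to test, and between 2 and 6 with 1 library left out: without dividing replicate 1 or 2, MIR167d and MIR163 were lost with log2 fold changes of similar size, and without non-dividing replicate 2, MIR850 and MIR169m were added. With the replicate block, the same 5 members were called (1 higher and 4 lower), the median was -1.06, and no call of a member changed. The block together with rescaling added MIR850 (-1.65, adjusted p = 0.0297 by limma) and MIR841a. The median over members was -0.19 without the filter and -0.12 with a mean FPKM of at least 5, and with 1 library left out it lay between -1.05 and -0.076. MIR838 turned to -0.20 after rescaling, with or without the block, to -0.31 after quantile normalization, to -0.01 without non-dividing replicate 2 and to -0.36 without dividing replicate 2. MIR824 turned to -0.12, -0.12 and -0.49 on these scales and to -0.17 without non-dividing replicate 2. MIR841a turned to 0.031 without non-dividing replicate 1 and to 0.0023 without dividing replicate 1. These members were not called on the deposited scale, and the cause was not tested. With overlapping members left out, 5 and 3 members were above 0 in non-dividing and 4 and 3 in dividing tissue, and the pattern of MIR835 was left with 0 members. At 1 FPKM it was also left with 0, while 1 (MIR156c) had the opposite pattern. The count of 15 members above 0 in at least 1 library was between 13 and 15 with 1 library left out, and 14 above 0.01 FPKM. With each library left out in turn, MIR838 lay between -0.36 and 0.64, MIR841a between -0.26 and 0.031 and MIR824 between -0.17 and 0.35. The number of libraries, and fragment numbers that are not given per value, limit all of these results.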
